A study of Mus musculus with 8 samples.

Results

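Accessible chromatin was examined at 10 genes that encode parts of the synaptonemal complex and of meiotic cohesin: *Sycp1*, *Sycp2*, *Sycp3*, *Syce1*, *Syce2*, *Syce3*, *Tex12*, *Smc1b*, *Rec8* and *Stag3*. They were listed by name, for the role of their proteins, out of 21866 protein-coding genes. The rule used no measured value, although the list was drawn up with earlier results of these data known. The data were ATAC-seq peaks, that is, regions where a transposase found DNA open to cutting, from mouse pachytene spermatocytes of *Arid1a* WT and *Arid1a* cKO males, with 4 libraries per genotype. ARID1A is a subunit through which the BAF remodeling complex, of the SWI/SNF type, binds DNA. *Arid1a* WT mice carried floxed *Arid1a* (fl/fl or fl/+) without Cre, and *Arid1a* cKO mice were *Arid1a* fl/fl with a Stra8-Cre transgene, which is active from spermatogonia onward. All were adults, and the floxed allele was kept on a CD1 background. Testes of several males were pooled, spermatocytes were enriched by Sta-Put sedimentation, and the libraries came from frozen aliquots, so the replicates may be technical. Excision was not complete, and the cKO fraction therefore also held cells that kept ARID1A.

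The synaptonemal complex is the protein zipper that joins homologous chromosomes from zygonema through pachynema. SYCP2 and SYCP3 form the lateral elements along each chromosome axis, SYCP1 forms the transverse filaments that bridge them, and SYCE1, SYCE2, SYCE3 and TEX12 build the central element. The axes rest on cohesin rings that carry meiosis-specific subunits, among them SMC1B, the kleisin REC8 and STAG3. These genes are largely silent in somatic cells and are switched on around meiotic entry.

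Each genotype was represented by 1 deposited peak list, made by overlapping the peaks of its libraries, so no value has a spread between replicates and no test between genotypes could be made. The WT list held 19309 peaks and the cKO list 30244, of which 918 and 13144 had no partner in the other list. The library that supplied the WT peaks had a background of 4.33 fragments per base, read from the grid of its fold enrichment values, and the one that supplied the cKO peaks had 5.11. All values at a peak come from that library, so genotype and library cannot be told apart. The height of a peak is given as its summit pileup, the number of fragments stacked at the highest point, and as scaled pileup, which is that number divided by the background. Intervals are exact 95% intervals (Poisson for a pileup, binomial for a ratio) and cover counting error only. Because a summit is the highest point, pileups are drawn toward high values in both lists. All 6 pachytene markers examined had a peak at a start in both lists, *Hspa2* with the highest pileup (123 fragments in WT and 194 in cKO) and *Ccna1* next (93 and 171). Markers of other testis cells were mostly without one. In WT, a start peak was present at 0 of 4 spermatogonial, 1 of 4 spermatid, 1 of 4 Sertoli, 1 of 4 Leydig and 0 of 3 leukocyte genes. In cKO these counts were 2, 2, 2, 1 and 1. Start peaks were gained at *Zbtb16* and *Kit* (spermatogonia), *Prm1* (spermatid), *Wt1* (Sertoli) and *Cd68* (leukocyte), with summit pileups of 18 to 20. The spermatid gene *Prm2* went from 16 to 197 fragments, within a cKO peak of 8599 bp, and the Sertoli gene *Amh* from 16 to 81, within one of 4830 bp. The part of other cells in the values below was not tested.

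The DNA under the peaks is shown first, because every one of the 10 genes had its peak over the start of transcription. RefSeq (GRCm38.p6) supplied 12 windows of 300 bases for the 10 genes, from 250 bases before to 50 after an annotated start, with 2 windows each for *Syce2* and *Syce3*. Of these windows, 11 lay wholly inside the WT peak, and that of *Sycp3* lay inside it for 207 of its bases. The core bound by E2F factors, TCCCGC on either strand, was in the windows of 7 of the 10 genes, against 22.05% of 27025 genes with a window and 42.0% of the 8369 of these with a start peak in both lists. The E-box CACGTG, the site of the MYC, MAX and MGA family, was found at 5 of 10, against 8.09% and 12.6%. Both motifs stood in 1 window at the same 5 genes, against 2.32% and 4.90%. These are matches of letters in a window, not binding sites. The 5 windows with both are given 5′ to 3′ on the strand of the gene, with E2F cores and E-boxes in capitals:
Sycp1, chr3:102936051-102936350 (- strand): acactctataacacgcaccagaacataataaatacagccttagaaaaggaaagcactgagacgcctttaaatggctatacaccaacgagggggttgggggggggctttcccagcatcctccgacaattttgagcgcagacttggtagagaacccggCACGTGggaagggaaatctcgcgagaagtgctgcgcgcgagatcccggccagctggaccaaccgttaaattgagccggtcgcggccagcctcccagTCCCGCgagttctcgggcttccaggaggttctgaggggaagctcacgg
Sycp3, chr10:88459337-88459636 (+ strand): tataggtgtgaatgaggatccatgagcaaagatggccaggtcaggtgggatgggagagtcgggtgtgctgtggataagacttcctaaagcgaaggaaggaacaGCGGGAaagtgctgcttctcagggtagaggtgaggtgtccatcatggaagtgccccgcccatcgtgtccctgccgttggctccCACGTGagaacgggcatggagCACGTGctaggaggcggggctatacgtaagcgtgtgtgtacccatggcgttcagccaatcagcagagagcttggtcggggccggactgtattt
Syce2, chr8:84872008-84872307 (+ strand): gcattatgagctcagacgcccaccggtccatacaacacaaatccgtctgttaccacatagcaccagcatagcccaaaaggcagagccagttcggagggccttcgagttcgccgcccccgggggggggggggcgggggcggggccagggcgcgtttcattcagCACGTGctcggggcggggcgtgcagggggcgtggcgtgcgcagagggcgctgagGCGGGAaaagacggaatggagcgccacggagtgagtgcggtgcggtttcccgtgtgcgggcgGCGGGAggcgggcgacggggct
Tex12, chr9:50561219-50561518 (- strand): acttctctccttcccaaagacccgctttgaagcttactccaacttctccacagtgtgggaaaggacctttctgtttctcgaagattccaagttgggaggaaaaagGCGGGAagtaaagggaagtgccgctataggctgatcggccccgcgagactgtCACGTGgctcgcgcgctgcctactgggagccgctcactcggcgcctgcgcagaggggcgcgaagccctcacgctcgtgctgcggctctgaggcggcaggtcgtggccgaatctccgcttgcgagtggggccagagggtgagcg
Stag3, chr5:138280259-138280558 (+ strand): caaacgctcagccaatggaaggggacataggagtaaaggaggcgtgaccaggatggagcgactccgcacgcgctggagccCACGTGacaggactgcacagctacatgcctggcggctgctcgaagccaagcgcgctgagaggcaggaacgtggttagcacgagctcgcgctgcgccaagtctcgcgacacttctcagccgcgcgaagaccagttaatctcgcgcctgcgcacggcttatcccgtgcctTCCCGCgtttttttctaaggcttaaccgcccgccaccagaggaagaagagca

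The E-box began 94 bases before the RefSeq start at *Sycp1*, 93 at *Tex12*, 88 at *Syce2* and 170 at *Stag3*. *Sycp3* had a pair of them, at 64 and 43 bases before the start. The E2F core sat at varied places: 147 bases before the start at *Sycp3*, 145 at *Tex12*, 34 at *Syce2* with another beyond the start, and 2 at *Stag3*, while at *Sycp1* it lay just past the start. The STRA8 motif CNCCTCAG, named for the transcription factor that drives meiotic entry, was found at 3 of 10 genes, *Sycp1*, *Syce2* and *Tex12*. Its share was 9.12% of all genes and 11.6% of those with a start peak in both lists. At *Syce2* the motif began 39 bases before the start and overlapped the E2F core. A few further windows are shown for contrast, *Smc1b* and *Rec8* with an E2F core alone (47 and 38 bases before the start) and *Sycp2*, the gene with the highest pileup of the 10, with neither motif:
Smc1b, chr15:85131908-85132207 (- strand): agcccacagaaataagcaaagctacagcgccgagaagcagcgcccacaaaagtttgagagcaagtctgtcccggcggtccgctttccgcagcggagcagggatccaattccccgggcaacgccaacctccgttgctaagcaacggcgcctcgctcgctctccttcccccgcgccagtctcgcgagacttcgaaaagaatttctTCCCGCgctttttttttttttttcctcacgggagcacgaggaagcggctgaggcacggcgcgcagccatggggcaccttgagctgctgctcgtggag
Rec8, chr14:55617916-55618215 (+ strand): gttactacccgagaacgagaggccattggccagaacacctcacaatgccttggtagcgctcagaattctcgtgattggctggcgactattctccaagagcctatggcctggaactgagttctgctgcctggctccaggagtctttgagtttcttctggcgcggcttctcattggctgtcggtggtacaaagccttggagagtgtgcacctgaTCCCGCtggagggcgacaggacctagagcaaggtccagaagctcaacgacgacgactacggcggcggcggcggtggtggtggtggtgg
Sycp2, chr2:178407609-178407908 (- strand): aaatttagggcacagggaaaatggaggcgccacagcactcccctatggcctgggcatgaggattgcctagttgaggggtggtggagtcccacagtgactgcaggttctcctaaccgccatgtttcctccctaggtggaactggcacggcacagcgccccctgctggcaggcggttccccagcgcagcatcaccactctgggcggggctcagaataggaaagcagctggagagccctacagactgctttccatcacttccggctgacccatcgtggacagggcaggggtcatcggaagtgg

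The MYB motif AACNGNC was present at 6 of the 10 genes (36.0% of all genes), the NFY motif CCAAT at 5 (41.1%) and the CRE TGACGTCA at 0 (2.03%). Among genes with a start peak in both lists the shares were 39.1%, 43.8% and 3.99%. GC content of the 12 windows ranged from 54.7% to 69.3% with a median of 60%, compared with 52.7% over all windows and 61.7% over those of genes with a start peak in both lists. The median ratio of observed to expected CpG was 0.71 in the 12 windows, 0.38 over all windows and 0.78 over genes with start peaks. In base composition these windows lay near those of other open promoters.

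The first comparison asked whether the genes kept their accessible sites without ARID1A. Each of the 10 genes had exactly 1 peak at its start in both lists. A peak at a start, or start peak, here means a peak that shares at least 1 bp with a start window. The window ran from 1000 bp upstream to 100 bp downstream of an annotated start of a protein-coding transcript, and the peak could reach beyond it. A start peak was present at 48.5% of protein-coding genes in the WT list and at 55.5% in the cKO list. All 10 WT peaks overlapped a cKO peak and none was lost (2.19% of protein-coding genes had a lost peak). In the WT list none of the 10 genes had any other peak in its body or in the 1000 bp upstream, as was true of 76.8% of the 10561 genes with a start peak in both lists. In the cKO list this held for 9 of 10, against 64.5%. The remaining gene was *Rec8*, the one member with a gained peak, and 23.6% of protein-coding genes had one.

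The gained *Rec8* peak covered chr14:55623902-55624823 (mm10), 922 bp in the 3′ part of the gene, 5865 to 6786 bp from its 5′ end. It lay over 760 bp of exons and 162 bp of introns and was on 3 rows, that is, it was overlapped 3 times by peaks of the other cKO libraries. It was low, with a fold enrichment of 3.11, a summit pileup of 18 fragments and a −log10 q of 3.68. For comparison, the lowest summit pileup of any cKO peak was 14. It was no longer in the list when a −log10 q of 5 or more was required, or when the cKO list was shortened to the length of the WT list.

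At *Sycp1*, the transverse filament gene, the start peak spanned chr3:102935355-102936545 in WT (1191 bp) and chr3:102935362-102937278 in cKO (1917 bp). The summit pileup was 76 fragments in WT (95% interval, 59.9 to 95.1) and 154 in cKO (131 to 180). Fold enrichment as deposited was 14.4 and 25.4. The cKO peak reached 733 bp farther upstream and stopped 7 bp short of the WT peak on the downstream side. All of the added width was therefore on the side away from the gene. Scaled pileup was 1.72 times higher in cKO (1.30 to 2.29).

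The lateral element genes had high peaks in both lists. *Sycp2* had the highest peak of the 10 in each, 103 fragments in WT (84.1 to 125) and 205 in cKO (178 to 235), at chr2:178406877-178408470 and chr2:178406662-178408643. Its WT pileup stood at percentile 95.8 of the 10561 genes and its cKO pileup at percentile 97.1. Fold enrichment went from 19.5 to 33.7, and scaled pileup was 1.69 times higher in cKO (1.32 to 2.16). The peak widened from 1594 to 1982 bp, about evenly on both sides (173 bp upstream and 215 bp downstream). *Sycp3* had 67 fragments in WT (51.9 to 85.1) and 126 in cKO (105 to 150), with fold enrichments of 12.8 and 20.8 and a scaled ratio of 1.59 (1.18 to 2.18). Its peak went from 1268 bp (chr10:88459430-88460697) to 2363 bp (chr10:88458954-88461316), the largest gain in width among the 10 at 1095 bp. In WT it began only 139 bp before the 5′ end of the gene and ran 1128 bp into it, mostly over intron (985 bp).

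The central element genes were more varied. *Syce3* stood highest, with 69 fragments in WT (53.7 to 87.3) and 134 in cKO (112 to 159), at chr15:89409334-89411037 and chr15:89409250-89411671. Its fold enrichment went from 13.1 to 22.1 and the scaled ratio was 1.65 (1.22 to 2.23). *Syce1* had 41 fragments in WT (29.4 to 55.6) and 68 in cKO (52.8 to 86.2), at chr7:140787275-140788186 and chr7:140787173-140788314. Its fold enrichments were 7.88 and 11.3, and the interval of its scaled ratio held 1 (1.41, 0.94 to 2.12). *Tex12* was close to *Syce1*, with 40 fragments in WT (28.6 to 54.5) and 64 in cKO (49.3 to 81.7), at chr9:50560857-50561539 and chr9:50560641-50561646. Fold enrichment was 7.69 and 10.6 there, and the ratio was 1.36 (0.90 to 2.07). *Syce2* differed least between the lists, with 60 fragments in WT (45.8 to 77.2) and 82 in cKO (65.2 to 102), fold enrichments of 11.4 and 13.6 and a ratio of 1.16 (0.82 to 1.64). Its peak nevertheless widened from 1417 bp (chr8:84871495-84872911) to 2439 bp (chr8:84870747-84873185), mostly upstream (748 bp). The interval of the height ratio held both 1 and the median ratio of all genes, 1.54, so whether height moved with width was not resolved. The WT and cKO summits were placed 674 bp apart, but the WT one fell outside the deposited interval, so its position is not certain. Whether the heights are of the same site is therefore not known.

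Of the cohesin genes, *Smc1b* had the lowest WT peak of the 10 genes, 32 fragments (21.9 to 45.2) against 66 in cKO (51.0 to 84.0), with fold enrichments of 6.19 and 10.96. The scaled ratio was 1.75 (1.13 to 2.76). The peak spanned chr15:85131344-85132265 in WT (922 bp) and chr15:85131060-85132562 in cKO (1503 bp), and both intervals also held the start of the neighbouring gene *Ribc2*, so the fragments cannot be assigned to either gene alone. *Rec8* had 40 fragments in WT (28.6 to 54.5) and 59 in cKO (44.9 to 76.1), with fold enrichments of 7.69 and 9.82 and a ratio of 1.25 (0.82 to 1.92). Its start peak widened 2.06 times, from 673 bp (chr14:55617817-55618489) to 1386 bp (chr14:55617769-55619154), and 665 of the added bases lay on the side of the gene. *Stag3* showed the largest ratio of the 10, from 59 fragments in WT (44.9 to 76.1) to 138 in cKO (116 to 163), with fold enrichments of 11.3 and 22.7 and a scaled ratio of 1.98 (1.45 to 2.74). Its peak was also the widest of the 10 in both lists, at 2062 bp (chr5:138279032-138281093) and 2665 bp (chr5:138279016-138281680). The peak held the starts of *Gpc2* and *Gm43720* as well, so its fragments cannot be assigned to *Stag3* alone.

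**Figure D1:**
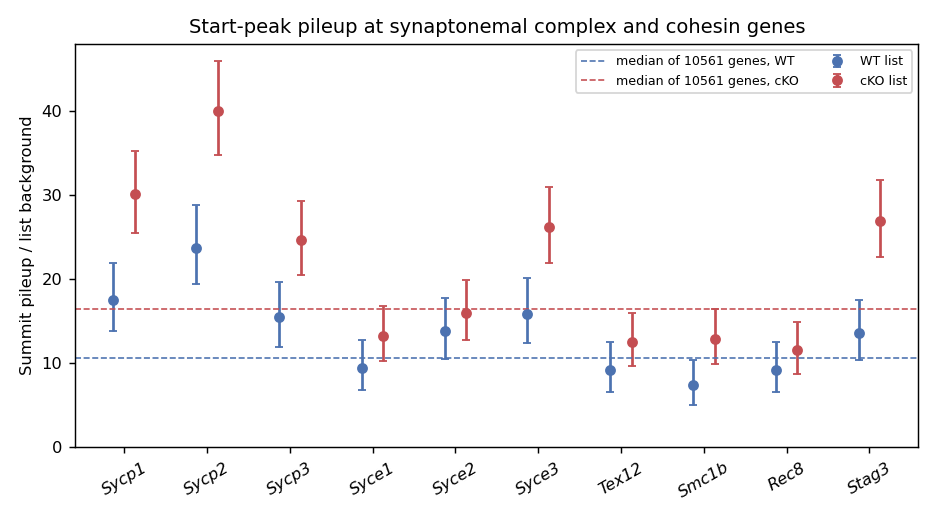
Summit pileup of the start peak divided by the background of its list (vertical axis, no unit) for each of the 10 genes, with the WT list in blue and the cKO list in red, points being single peaks and bars exact 95% Poisson intervals. *Sycp2* is highest in both lists (23.8 and 40.1), *Smc1b* lowest in WT (7.39) and *Rec8* lowest in cKO (11.5), and the dashed lines mark the medians of 10561 genes (10.6 and 16.4).

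The 10 genes did not share one level of accessibility. In the WT list 6 of them had a summit pileup above the median of the 10561 genes and in the cKO list 5 did, with *Sycp1*, *Sycp2*, *Sycp3*, *Syce3* and *Stag3* above in both. *Syce1*, *Tex12*, *Smc1b* and *Rec8* were below the median in both. *Syce2* went from percentile 69.7 in WT to 48.5 in cKO. Among neighbours in the WT order, the counting intervals of *Sycp3*, *Syce3* and *Sycp1* overlapped, as did those of *Smc1b*, *Rec8*, *Tex12* and *Syce1*. The order within these groups was therefore not resolved. Nor were the groups separate, since the WT interval of *Sycp3* (from 51.9) overlapped that of *Syce1* (to 55.6). That of *Sycp2* (from 84.1) likewise overlapped that of *Sycp1* (to 95.1). *Sycp2* and *Smc1b*, at the ends, did not overlap in either list.

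**Figure D2:**
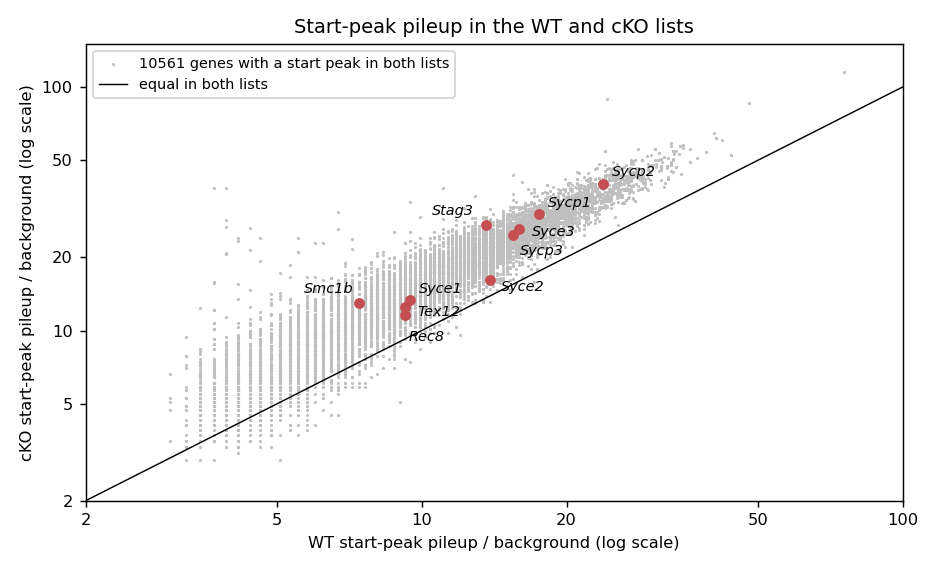
Scaled pileup of the start peak in the WT list (horizontal axis) and the cKO list (vertical axis), both on log scales and without unit, for 10561 genes in grey and the 10 named genes in red. All 10 lie above the line of equality, as do 97.4% of all genes, with *Stag3* at the upper and *Syce2* at the lower side of the cloud.

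Scaled pileup was higher in cKO at 10 of the 10 genes, and at 97.4% of the 10561 genes. It was at least 1.5 times higher at 6 of the 10 genes, and at 55.3% of all. The interval of the ratio lay above 1 for *Sycp1*, *Sycp2*, *Sycp3*, *Syce3*, *Smc1b* and *Stag3*. The share of all 10561 genes with such an interval was not counted, and the width of an interval depends on the number of fragments. Summed over the 10 genes, 587 fragments in WT and 1096 in cKO gave a scaled ratio of 1.58 (1.43 to 1.75). The median ratio over all 10561 genes was 1.54, a shift of 0.62 on the log2 scale, with 5th and 95th percentiles of 1.09 and 2.04. Relative to that shift, the summed ratio was 1.03 (0.93 to 1.14). The summed rise of the 10 genes was thus of the size seen at start peaks in general. Gene by gene, the relative values ran from 0.75 at *Syce2* (0.53 to 1.07) to 1.29 at *Stag3* (0.94 to 1.78), and the interval held 1 at all 10 genes. No departure of a single gene from the shift was therefore detected within counting error, and the intervals leave room for departures of the sizes they span. Among all ratios, *Stag3* stood at percentile 93.4 and *Syce2* at 8.02.

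**Figure D3:**
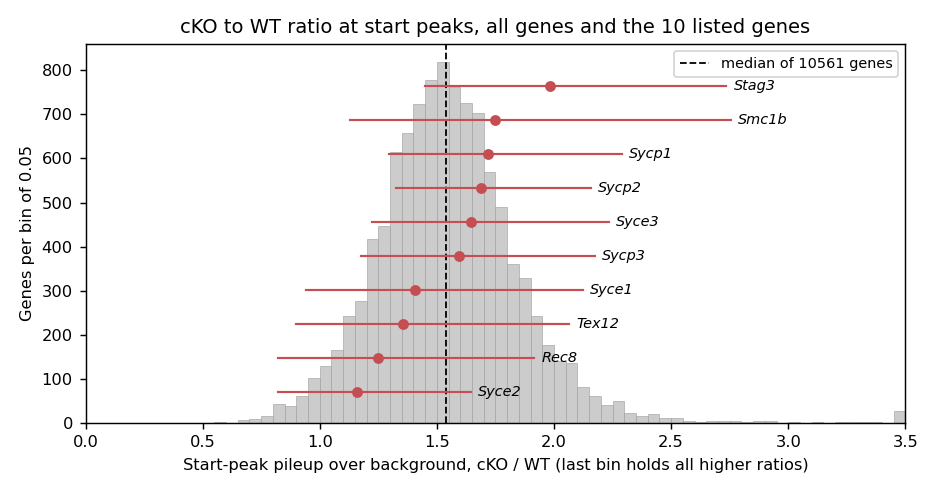
Distribution of the cKO to WT ratio of scaled pileup over 10561 genes (grey bars, genes per bin of 0.05) with the 10 genes as red points at arbitrary heights and their exact 95% binomial intervals as lines. The interval of each of the 10 crosses the dashed median of all genes at 1.54, and the last bin holds the 27 genes above 3.45.

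By role, the ratio was 1.72 for the transverse filament gene, 1.59 and 1.69 for the lateral element genes, 1.16 to 1.65 with a median of 1.38 for the 4 central element genes, and 1.25 to 1.98 with a median of 1.75 for the 3 cohesin genes. The cohesin range held the values of the transverse filament and lateral element genes, whereas the transverse filament value lay above the lateral and central element ranges. Of the cohesin peaks, those of *Smc1b* and *Stag3* also held starts of other genes, so their ratios cannot be assigned to these genes alone. With 1 to 4 genes per role, and counting intervals that overlapped, no order between the roles was resolved.

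The extent of the peaks was compared next. Start peaks were wider in cKO at all 10 genes, and at 95.5% of the 10561 genes. Widths ran from 673 to 2062 bp in WT (median 1230) and from 1006 to 2665 bp in cKO (median 1950), against medians of 1074 and 1574 bp over all genes. The ratio of widths ranged from 1.24 at *Sycp2* to 2.06 at *Rec8* with a median of 1.54, and the median of all genes was 1.45. The cKO interval contained the WT interval at 9 of 10 genes, all but *Sycp1*. The share of all genes where this holds was not counted, so the count is not a trait of these genes. Growth was mainly upstream at *Sycp1*, *Syce2* and *Syce3* (733, 748 and 634 bp) and mainly into the gene at *Rec8* and *Stag3* (665 and 587 bp, against 48 and 16 bp upstream). It was spread over both sides at *Sycp2*, *Sycp3*, *Syce1*, *Tex12* and *Smc1b*.

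**Figure D4:**
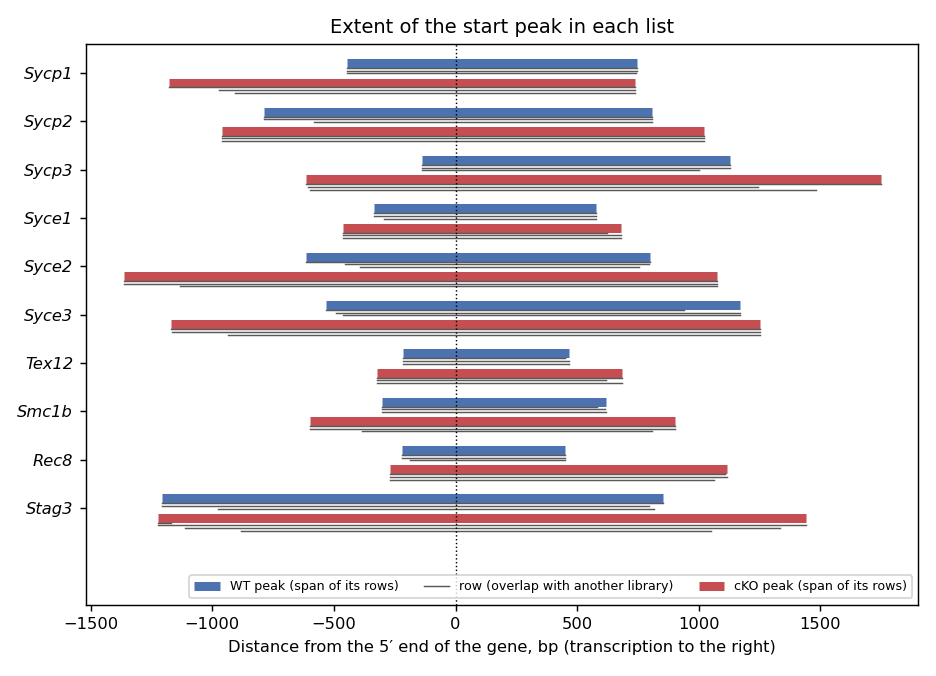
Extent of the start peak in each list (blue for WT, red for cKO) against distance from the 5′ end of the gene in bp, with transcription to the right. Thin grey lines are the rows of a peak, each its overlap with a peak of another library of that genotype; all cKO rows are wider than all WT rows at every gene except *Stag3*, where cKO rows of 54 and 1933 bp are narrower than the widest WT row of 2062 bp.

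The rows of a peak give the nearest thing to a check between libraries, although all rows share the reference library. Every start peak of the 10 genes was on 3 rows in WT, and in cKO 9 were on 3 rows and *Stag3* on 4. Over the whole lists, 52419 rows made up the 19309 WT peaks and 84006 rows the 30244 cKO peaks. The share of all start peaks on as many rows was not counted, so whether the counts are particular to these genes is not known. Row widths within a list differed by gene and by list. At *Sycp1* they ran from 1189 to 1191 bp in WT but from 1645 to 1917 bp in cKO, whereas at *Sycp2* they ran from 1391 to 1594 bp in WT and all measured 1982 bp in cKO. They varied most at *Syce2* in WT (1147 to 1417 bp) and, leaving out *Stag3*, at *Sycp3* in cKO (1850 to 2363 bp). At 9 of 10 genes the narrowest cKO row was wider than the widest WT row, and the same was true of 88.3% of the 10561 genes. The exception was *Stag3*, whose cKO rows measured 54, 1933, 2446 and 2665 bp and whose WT rows measured 1795, 2003 and 2062 bp.

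The position of the summit was stable at most genes. Between the lists it moved by 0 bp at *Sycp3*, 1 bp at *Tex12*, 5 bp at *Sycp1* and *Rec8*, 14 bp at *Syce3*, 49 bp at *Syce1* and 78 bp at *Sycp2*. It moved by 201 bp at *Smc1b*, 204 bp at *Stag3* and 674 bp at *Syce2*. The offset is counted from the start of the peak as called, which the overlap of libraries can have trimmed, and the *Syce2* WT summit falls outside the deposited interval for that reason, so its position is not certain. In the cKO list, summits lay from 66 bp before (*Tex12*) to 380 bp after (*Smc1b*) the 5′ end of the gene.

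Genes with related roles were listed for comparison. Of 9 further genes listed under the axis and synaptonemal complex, 7 had a start peak in both lists. The list was loose, since *Meikin* acts at kinetochores and *Hspa2* also served as a pachytene marker. The highest WT pileups among the 7 were at *Hspa2*, a chaperone needed for disassembly of the complex, and at *Trip13*. The latter encodes the ATPase that removes HORMAD proteins from the axis (46 fragments in WT and 102 in cKO, scaled ratio 1.88, 1.31 to 2.72). *Rad21l*, a meiotic kleisin like REC8, had no peak in either list, and *Ccdc36*, which encodes an axis protein needed for double-strand breaks, had none at its start. Both of these were picked out after their values were seen. The median ratio of the 7 genes was 1.48 (range 1.34 to 1.88), and 3 reached 1.5, against 55.3% of the 10561 genes. The lowest ratios of the 7 were those of *Hspa2* (1.34) and *Meikin* (1.35).

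Among 18 genes of ubiquitous cohesin and its regulators, 16 had a start peak in WT and 18 in cKO. *Smc3*, the ring subunit shared by mitotic and meiotic cohesin, had the highest WT pileup, 92 fragments against 151 in cKO. *Wapl*, which releases cohesin from DNA, followed with 77 and 161. The start peak at *Hdac8*, the SMC3 deacetylase, was gained, with 19 fragments over 285 bp. *Pds5a* had a start peak only in cKO (46 fragments, 1890 bp) that overlapped a WT peak outside the start window, and it was named after its value was seen. The median ratio over the 16 genes with peaks in both lists was 1.48 (range 1.22 to 2.07). Of these, 7 were at least 1.5, against 55.3% of the 10561 genes. The range of the 3 meiotic cohesin genes, 1.25 to 1.98, lay within that of the 16, while the medians were 1.75 and 1.48. Whether the medians differ was not tested, and the *Smc1b* and *Stag3* peaks are shared with other gene starts.

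At *Arid1a* itself the WT list had 3 peaks and the cKO list 1, none farther into the gene than 5114 bp from the start. The excised exons were not covered, so the lists do not check the genotype.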

How the data were processed

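ATAC-seq was carried out by the authors on 4 *Arid1a* WT and 4 *Arid1a* cKO libraries (Omni-ATAC). Per the study's methods and the submitters' processing notes, reads were trimmed with Trim Galore, aligned to mm10 with Bowtie2, cleared of duplicates and mitochondrial reads with Picard and SAMtools, and peaks were called per library with MACS2 (q of 0.05, no local background), filtered for blacklisted regions and intersected between replicates with bedtools. Fold enrichment was deposited as a ratio of pileup to background, with 1 added to each. The −log10 q values deposited with it come from the caller, and another deposited column, of unit other, holds the summit offset. No read counts were used, and the depth of the single libraries is unknown.

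All rows that shared a peak name were joined into one interval. Background and pileup were recovered from the grid of fold values, and 100% lay within 0.01 fragments of a whole number. Genes came from GENCODE vM21 (GRCm38, the build of mm10), with no row past a chromosome end. WT and cKO peaks sharing 1 bp were common, otherwise lost or gained. Where a gene had several start peaks, the highest was used for pileup and the covered bases for width. The 10 genes, though listed by role and not by a measured value, and the other lists and motifs were chosen with earlier results of these data known. All 10 genes are named. Of other lists, genes with a gained or lost start peak and the 2 with the highest WT fold are named, and neighbours whose start lies in a peak. Promoter sequences came from RefSeq (GRCm38.p6), and all 12 windows matched the genome sequence. The steps were tested on simulated data. Python 3.11.15, numpy 2.4.6, scipy 1.17.1 and matplotlib 3.10.9 were used.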

Additional observations from a re-analysis of the deposited data

How the results depend on the processing

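Of 75 values recomputed under 11 alternative settings, 68 kept their size (counts within 1.5 times, ratios within their interval), 7 moved and 0 reversed. Many of the 68 could not have changed, so the tally does not measure robustness. All start peaks of the 10 genes passed the −log10 q limits of 5 and 10 and the limit of 3 or more rows. Under those settings the start-peak counts, width ratio and pileup ratio were therefore bound to stay the same. When a peak counted for a start only if its centre lay in the window, 4 of the 10 genes had a start peak in WT and 6 in cKO, the centres of the others lying outside it. Gained peaks numbered 0 at a −log10 q of at least 5, 0 at one of at least 10, 0 with equal list lengths, and 3 with 3000 bp upstream. Divided by the median ratio of all genes, an alternative added after seeing the data, the summed pileup ratio was 1.03 in place of 1.58. Without that division it ran from 1.58 to 1.63, and the median log2 ratio of width from 0.44 to 0.62. The values of 1.63 and 0.44 came from the peak-centre setting, where only 4 of the 10 genes had a start peak in both lists. No paired analysis was possible because each genotype has 1 deposited list, and for the same reason no library could be left out. Depth limits the ratios most at *Smc1b*, *Tex12*, *Rec8* and *Syce1*, which had 32 to 41 fragments in WT.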

Other observations

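Within 20000 bp of either end of the 10 genes, beyond the 1000 bp upstream already described, the WT list held 14 peaks and the cKO list 25. Of the WT peaks 13 were common and 1 was lost, a peak of 324 bp that lay 4961 bp downstream of *Sycp2*. Of the cKO peaks 14 were gained, and 13 of these held no annotated gene start, whereas 9 peaks of each list held one. Over the whole cKO list 13144 of 30244 peaks were gained. No flanking peak was found for 4 of the 10 genes in WT and for 2 in cKO. The gained peaks were low. At *Rec8* a peak of 438 bp lay 148 bp past the 3′ end of the gene with a fold enrichment of 3.27, close to the gained peak in the 3′ part of the gene. At *Sycp3* one of 335 bp lay 2442 bp upstream (fold enrichment 2.78), and at *Syce3* one of 2340 bp lay 5752 bp upstream (3.76) and was on 4 rows. The highest fold enrichment among gained flanking peaks was 3.93, at a peak 3577 bp downstream of *Sycp2*.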
